A study of Homo sapiens with 12 samples.

Results

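The expression of 10 genes of the apoptosis machinery was followed in human neuroblastoma cells given Erastin: the death receptors TNFRSF10A, TNFRSF10B and FAS, the initiator caspase CASP8, the anti-apoptotic genes BCL2, BCL2L1 and MCL1, and the BH3-only genes BCL2L11, BBC3 and PMAIP1. They were chosen by name, with earlier results of these data known, and are 10 of the 58735 gene names in the count tables. Bulk RNA-seq covered 12 samples in 4 groups of 3. KELLY, a neuroblastoma line with amplified MYCN, received 1 µM Erastin or DMSO, and SK-N-AS, a line without that amplification, received 2 µM Erastin or DMSO, all for 24 h. Dose therefore changed together with the line, and the effects of line and dose on a response cannot be told apart. Each line is 1 culture model, seeded in triplicate wells, and the p-values measure the spread between such samples.

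Apoptosis starts along either of 2 routes. Along the extrinsic route a ligand binds a death receptor at the cell surface, and the receptor recruits and activates caspase-8. Along the mitochondrial route BH3-only proteins bind the anti-apoptotic BCL2 proteins and so release BAX and BAK, which open the outer mitochondrial membrane. Erastin blocks cystine uptake and is used to start ferroptosis, a death by lipid peroxidation that does not depend on caspases. Neuroblastoma is known for frequent loss of CASP8 expression, in particular in tumours with amplified MYCN, and for dependence on BCL2 or MCL1 in many lines.

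The samples held 24169796 to 29835670 counts each. MYCN, the gene amplified in KELLY, had 116651 to 159802 counts in the KELLY samples and 1 to 11 in the SK-N-AS samples. All 8 adrenergic neuroblastoma markers on a fixed list were above 1 CPM (counts scaled by library size, with TMM factors over the 12 samples) in every sample, with a summed level of 4196 to 7035 CPM in KELLY DMSO and 945 to 1039 CPM in SK-N-AS DMSO. Of 8 mesenchymal markers, 4 were above 1 CPM in KELLY (140 to 165 CPM summed with DMSO) and 7 in SK-N-AS (2393 to 2768 CPM). Of 14 blood cell markers, none was above 1 CPM in all 3 samples of a KELLY group, and PTPRC alone was in SK-N-AS, at 454 to 620 CPM. PTPRC had no count in KELLY, and its part in the line differences was not tested. Single libraries held HBB: 8.09 CPM in KELLY DMSO replicate 1, 3.73 CPM in KELLY Erastin replicate 1 and 1.47 CPM in SK-N-AS Erastin replicate 1. The other samples held at most 0.109 CPM of HBB, and the source of these counts was not tested. Libraries of 1 group differed in how their counts varied with the GC content of genes. In KELLY the rank correlation of a library's deviation with GC content, over 12020 genes, was -0.83, 0.71 and -0.48 in the DMSO samples and 0.87, -0.67 and 0.26 in the Erastin samples, in the order of replicates 1 to 3. In SK-N-AS, over 11886 genes, it was 0.77, 0.26 and -0.75 with DMSO and -0.30, 0.43 and -0.45 with Erastin. Values after removal of each library's GC trend are therefore given beside the results they move most.

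The promoters of 2 genes are shown because they carry the main findings: PMAIP1, which rose with Erastin in SK-N-AS, and CASP8, which differed most between the lines. The bases are those of RefSeq before the first base of the gene, on GRCh38.p14 and 5′ to 3′ on the gene's own strand. The PMAIP1 stretch is chr18:59899746-59899995 on the + strand, and capitals mark a match to TGACGT, the core of the cAMP response element, on the opposite strand.
PMAIP1: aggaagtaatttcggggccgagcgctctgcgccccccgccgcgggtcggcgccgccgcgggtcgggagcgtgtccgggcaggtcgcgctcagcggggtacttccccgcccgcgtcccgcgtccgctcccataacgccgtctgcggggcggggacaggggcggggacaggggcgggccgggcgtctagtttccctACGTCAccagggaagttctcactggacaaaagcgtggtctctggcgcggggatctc
The CASP8 stretch is chr2:201233213-201233442 on the + strand and holds no match to TGACGT.
CASP8: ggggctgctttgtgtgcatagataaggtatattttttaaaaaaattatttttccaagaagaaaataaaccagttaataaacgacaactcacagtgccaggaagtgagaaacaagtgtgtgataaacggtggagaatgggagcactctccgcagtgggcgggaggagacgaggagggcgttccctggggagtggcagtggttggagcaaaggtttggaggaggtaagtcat

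Windows of 300 bases, from 250 before to 50 after the RefSeq start, were searched on both strands for 7 of the genes (FAS, CASP8, BCL2, BCL2L1, BCL2L11, BBC3 and PMAIP1). The match in PMAIP1 began at position -56. TGACGT, a motif that was added after the PMAIP1 result was seen, is held by 7.982% of 35116 promoter windows of this length. The composite C/EBP-ATF core TGATGNAA, held by 3.617% of windows, was in none of the 7. The absence of these letters refers to these windows only. PMAIP1 had 42 CpG dinucleotides in its window, against a median of 14 over all windows, and 94.15% of windows had fewer. CASP8 had 6, and 33.67% of windows had fewer.

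Of the 10 genes, 1 changed with Erastin at a Benjamini-Hochberg adjusted p under 0.05: PMAIP1, which rose 2.23-fold in SK-N-AS. The 10 tested in SK-N-AS compare with 0.659% of the 16095 genes tested that passed in either direction, and 0.46% that passed upwards. In KELLY 0 of the 9 genes tested passed in the edgeR test, as did 0.00615% of 16258 genes. There 1 of the 9, BBC3, had an unadjusted p under 0.05, and DESeq2 also called 0. BBC3 met the looser threshold that the study used, an unadjusted p of at most 0.05 with a fold change of at least 1.5. In KELLY 2.03% of genes met it. The study set this threshold on DESeq2 results for protein-coding genes. Here and below it is set on the edgeR results for all genes tested. TNFRSF10A was not tested in KELLY because its counts were too low. The lines themselves differed far more. With DMSO, 6 of the 10 genes differed between SK-N-AS and KELLY, close to the 61.3% of all 17089 genes that did. Of the 10, 5 were higher in SK-N-AS, beside 30.3% of all genes tested, and 1 was lower, beside 30.9%. The 5 include TNFRSF10A, which passed the filter on low counts through the SK-N-AS samples alone and so had to differ. With the GC trends removed 0 of 9 passed in KELLY (0.197% of all genes), 1 of 10 in SK-N-AS (5.46%) and 7 of 10 between the lines (73.5%), where BBC3 joined the 6. In bulk RNA fewer cells with a transcript and less transcript per cell cannot be told apart.

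**Figure D1:**
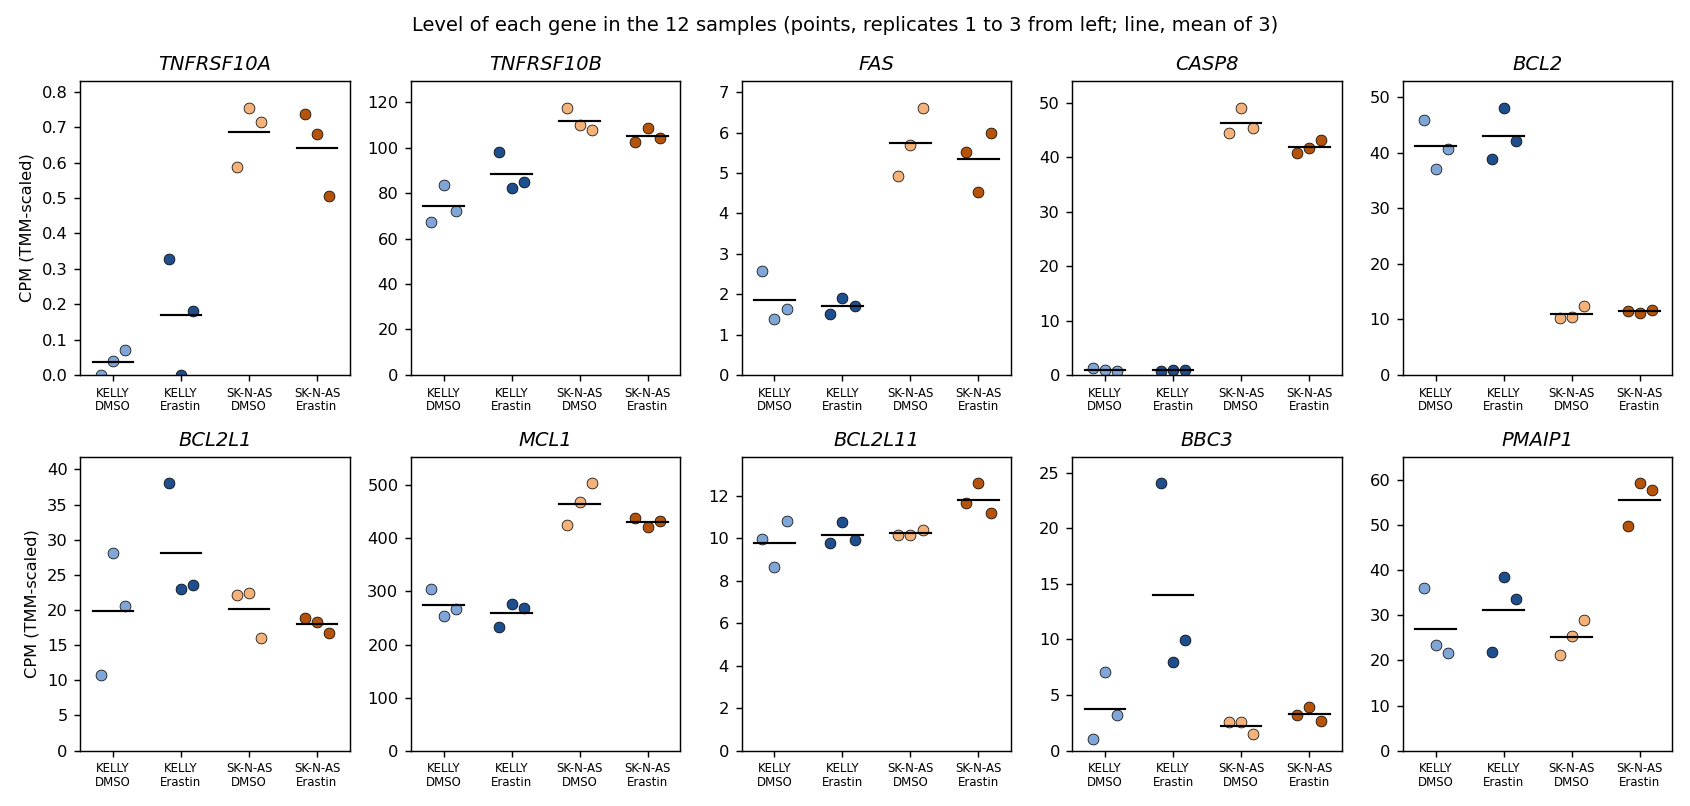
Each panel plots the level of 1 gene in CPM (TMM-scaled, vertical axis from 0) in the 12 samples, by group, with points for replicates 1 to 3 and a line at the mean of 3. PMAIP1 is higher in every SK-N-AS Erastin sample (49.9 to 59.3 CPM) than in any other sample, CASP8 lies between 0.700 and 1.32 CPM in KELLY and between 40.8 and 49.1 CPM in SK-N-AS, and BBC3 is widely spread in KELLY.

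TNFRSF10A and TNFRSF10B encode the receptors for the ligand TRAIL, and both lie on the short arm of chromosome 8 in GRCh38. TNFRSF10A (ENSG00000104689, chr8:23190452-23225102, minus strand) was hardly detected. It had 0, 1 and 2 counts in KELLY DMSO, 8, 0 and 5 in KELLY Erastin, 16, 19 and 19 in SK-N-AS DMSO and 20, 20 and 13 in SK-N-AS Erastin. All SK-N-AS samples were above all KELLY samples, and within each line the treated and control samples overlapped. The 54 counts of SK-N-AS DMSO against the 3 of KELLY DMSO give a ratio of 17.997 after scaling, with a 95% counting interval of 5.84 to 90.0 that covers counting error only. The gene entered the fit of the lines through the SK-N-AS samples alone, where it is the higher, so its adjusted p of 0.000585 is no support for the difference. In SK-N-AS the Erastin log2 fold change was -0.08 ± 0.33 (SE, adjusted p = 0.970).

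TNFRSF10B (ENSG00000120889, chr8:23020133-23069031, minus strand) was by far the more abundant TRAIL receptor. Its levels were 67.2, 83.4 and 72.3 CPM in KELLY DMSO and 98.2, 82.4 and 85.1 CPM in KELLY Erastin. In SK-N-AS they were 118, 110 and 108 CPM with DMSO and 103, 109 and 104 CPM with Erastin. Every SK-N-AS sample was above every KELLY sample, and the treated and control samples overlapped in both lines. The control level was 1.49-fold higher in SK-N-AS (log2 0.57 ± 0.14 SE, adjusted p = 0.00558). The Erastin log2 fold change was 0.26 ± 0.16 (SE, adjusted p = 0.770) in KELLY, or 0.17 ± 0.07 with the GC trends removed (SE, adjusted p = 0.693), and -0.08 ± 0.08 (SE, adjusted p = 0.873) in SK-N-AS. RHOBTB2 on the opposite strand shares 7.53% of the exon bases of TNFRSF10B, and since the strand setting of the counting is not given in the sources used here, reads from that stretch cannot be assigned to either gene.

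FAS (ENSG00000026103, chr10:88953813-89029605, plus strand), the receptor for FAS ligand, was low in both lines. It lay at 2.57, 1.38 and 1.64 CPM in KELLY DMSO and 1.52, 1.90 and 1.70 CPM in KELLY Erastin. In SK-N-AS it lay at 4.93, 5.69 and 6.62 CPM with DMSO and 5.53, 4.53 and 6.00 CPM with Erastin. The lines did not overlap and the treatments did. The control level was 3.04-fold higher in SK-N-AS (log2 1.61 ± 0.28 SE, adjusted p = 0.000961). Erastin gave a log2 fold change of -0.13 ± 0.31 (SE, adjusted p = 0.879) in KELLY and -0.09 ± 0.17 (SE, adjusted p = 0.933) in SK-N-AS. The KELLY controls had 34 to 66 counts and an SD of 33.4% of their mean, where counting would give 14.3%, and the sign in KELLY turned to 0.08 once the GC trends were removed.

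CASP8 (ENSG00000064012, chr2:201233443-201361836, plus strand), the caspase that death receptors activate first, showed the largest line difference of the 10 genes among those with more than a few counts in both lines. It had 34, 20 and 20 counts in KELLY DMSO and 18, 24 and 25 in KELLY Erastin, against 1210, 1236 and 1209 in SK-N-AS DMSO and 1107, 1228 and 1109 in SK-N-AS Erastin. Scaled, the controls held 0.945 ± 0.332 CPM in KELLY and 46.4 ± 2.43 CPM in SK-N-AS (mean ± SD, n = 3 each). The difference was 48.5-fold (log2 5.60 ± 0.25 SE, adjusted p = 3.52e-07), and over 16 alternative settings it stayed between 5.42 and 5.92 on the log2 scale. In SK-N-AS the Erastin samples, at 40.8, 41.8 and 43.2 CPM, were all below the controls at 44.5, 49.1 and 45.5 CPM, but the log2 fold change of -0.13 ± 0.09 did not pass (SE, adjusted p = 0.766). In KELLY it was -0.13 ± 0.37 (SE, adjusted p = 0.890) and turned to 0.13 with the GC trends removed.

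**Figure D2:**
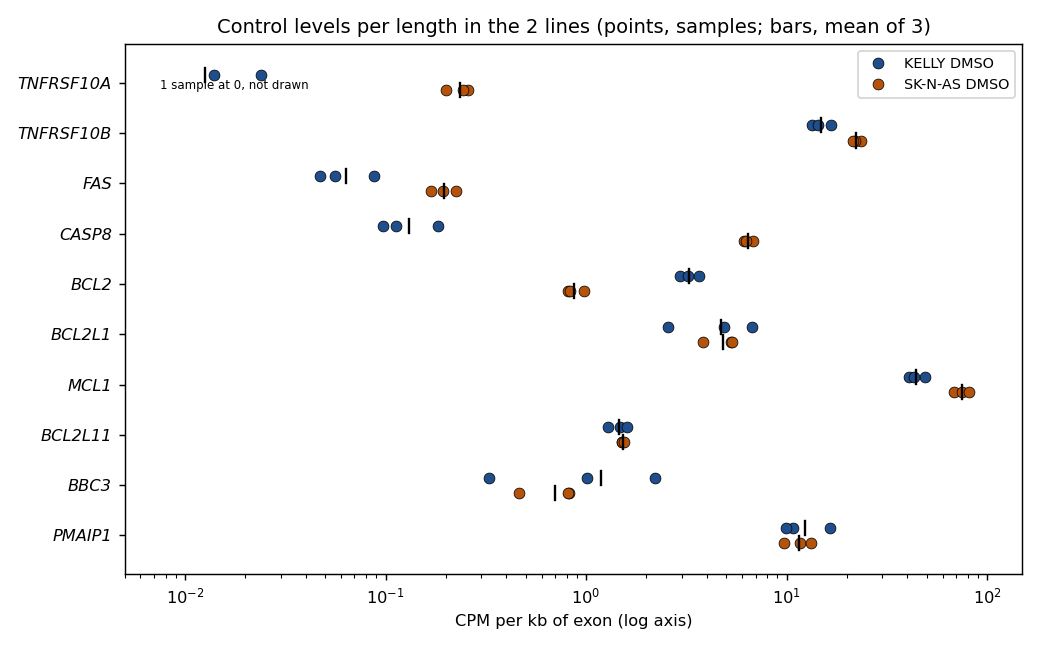
Control levels of the 10 genes in the DMSO samples, as CPM per kb of exon on a log axis, with KELLY in blue, SK-N-AS in orange and black bars at the mean of 3 (1 KELLY sample of TNFRSF10A at 0 is not drawn). CASP8 is separated by the widest gap among the genes detected in every sample, all KELLY points of BCL2 lie to the right of SK-N-AS, and BCL2L1, BCL2L11, BBC3 and PMAIP1 overlap.

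Of the 3 anti-apoptotic genes, BCL2 was lower and MCL1 higher in SK-N-AS controls than in KELLY controls, and BCL2L1 was not called. None was called with Erastin in either line. BCL2 (ENSG00000171791, chr18:63123346-63320128, minus strand), the founding member of the family, lay at 45.9, 37.0 and 40.6 CPM in KELLY DMSO and 38.9, 48.1 and 42.2 CPM in KELLY Erastin. In SK-N-AS it lay at 10.3, 10.5 and 12.3 CPM with DMSO and 11.5, 11.1 and 11.7 CPM with Erastin. Every KELLY sample was thus above every SK-N-AS sample, with overlap between treatments. The log2 difference, SK-N-AS minus KELLY, was -1.91 ± 0.17 (SE, adjusted p = 1.36e-05), so that SK-N-AS controls held 0.265 of the KELLY level. With Erastin the log2 fold change was 0.07 ± 0.17 in KELLY (SE, adjusted p = 0.878; 0.20 ± 0.08 with the GC trends removed, adjusted p = 0.693) and 0.06 ± 0.12 in SK-N-AS (SE, adjusted p = 0.939).

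MCL1 (ENSG00000143384, chr1:150560895-150579738, minus strand), a short-lived anti-apoptotic protein that binds NOXA, the product of PMAIP1, had the highest level of the 10 genes in every group. Its levels were 304, 254 and 268 CPM in KELLY DMSO, 233, 276 and 268 CPM in KELLY Erastin, 425, 468 and 504 CPM in SK-N-AS DMSO and 439, 422 and 432 CPM in SK-N-AS Erastin. The lines were separate and the treatments overlapped. The control level was 1.67-fold higher in SK-N-AS (log2 0.74 ± 0.13 SE, adjusted p = 0.00105). The Erastin log2 fold change was -0.08 ± 0.14 (SE, adjusted p = 0.822) in KELLY and -0.10 ± 0.08 (SE, adjusted p = 0.825) in SK-N-AS.

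BCL2L1 (ENSG00000171552, chr20:31664452-31723989, minus strand), which encodes BCL-XL, spread widely among KELLY samples. They held 10.8, 28.1 and 20.5 CPM with DMSO and 38.0, 22.95 and 23.5 CPM with Erastin. SK-N-AS held 22.1, 22.4 and 16.0 CPM with DMSO and 18.8, 18.3 and 16.7 CPM with Erastin. The groups overlapped in each comparison. The spread of KELLY controls was 43.7% of their mean, where counting error alone would give 4.39%. The gene has a GC content of 57.8%, above 81.0% of the genes tested in KELLY, and its lowest and highest KELLY samples were the libraries with the most negative and the most positive GC trend. The Erastin log2 fold change in KELLY was 0.51 ± 0.36 (SE, adjusted p = 0.770), 0.28 ± 0.17 with the GC trends removed (SE, adjusted p = 0.693), and -0.06 without replicate 1 of both groups. In SK-N-AS it was -0.16 ± 0.14 (SE, adjusted p = 0.837), and between the controls of the lines 0.01 ± 0.32 (SE, adjusted p = 0.976). The lncRNA ABALON on the opposite strand shares 41.3% of the exon bases of BCL2L1, and reads from that stretch could belong to either.

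The BH3-only genes held the 1 Erastin change that passed and the largest one that did not. PMAIP1 (ENSG00000141682, chr18:59899996-59904305, plus strand) encodes NOXA, which binds MCL1. The SK-N-AS controls held 575, 641 and 768 counts and the treated samples 1353, 1742 and 1482, or 21.2, 25.5 and 28.9 CPM against 49.9, 59.3 and 57.8 CPM. All 3 treated samples were above all 3 controls, and the gap was wider than the range of either group. The rise was 2.23-fold (log2 1.15 ± 0.12 SE, adjusted p = 0.000416), and the fold was the same to 2 decimals with the GC trends removed (log2 1.16 ± 0.08 SE, adjusted p = 1.96e-07). It passed in 15 of 16 alternative settings. The exception was the fit of all 12 samples together, in which the spread is shared with KELLY (log2 1.14, adjusted p = 0.0985).

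In KELLY PMAIP1 lay at 36.1, 23.5 and 21.7 CPM with DMSO and 21.9, 38.5 and 33.5 CPM with Erastin, and the groups overlapped. The log2 fold change was 0.21 ± 0.28 (SE, adjusted p = 0.786). PMAIP1 has a GC content of 40.0%, above 16.2% of the genes tested, and the highest control (replicate 1) and the lowest treated sample (replicate 1) were the libraries with the most negative and the most positive GC trend. With these trends removed it was 0.43 ± 0.12 (SE, unadjusted p = 0.00799, adjusted p = 0.567). Without replicate 1 of both groups, it was 0.68 (adjusted p = 0.299). The controls of the lines overlapped (log2 difference -0.12 ± 0.23 SE, adjusted p = 0.668).

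BBC3 (ENSG00000105327, chr19:47220822-47232766, minus strand) encodes PUMA, a BH3-only protein. The KELLY controls held 27, 173 and 92 counts and the treated samples 586, 205 and 276, or 1.05, 7.03 and 3.22 CPM against 24.0, 7.95 and 10.0 CPM. All treated samples were above all controls, by a narrow margin between 7.03 and 7.95 CPM. The controls had an SD of 80.4% of their mean and the treated samples 62.6%, where counting would give 10.1% and 5.30%. The fold change was 3.74 (log2 1.90 ± 0.67 SE, unadjusted p = 0.0221), with an adjusted p of 0.770, so the gene met the threshold of the study but was not called after adjustment.

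BBC3 has a GC content of 64.4%, above 96.3% of the genes tested in KELLY. Its lowest sample (DMSO replicate 1, 2.43 below the mean of the line on the log2 scale) was the library with the most negative GC trend, and its highest (Erastin replicate 1, 1.99 above) the one with the most positive. The trend fitted at its GC content accounted for -0.70 and 0.70 of these deviations. With the trends removed the log2 fold change was 1.54 ± 0.37 (SE, unadjusted p = 0.00278, adjusted p = 0.406), a 2.90-fold difference. Without replicate 1 of both groups, it was 0.82 (adjusted p = 0.979). Over 17 alternatives it ranged from 0.82 to 2.70 without passing in any of them, and the lowest adjusted p among them was 0.0594.

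In SK-N-AS BBC3 lay at 2.61, 2.58 and 1.47 CPM with DMSO and 3.24, 3.91 and 2.65 CPM with Erastin. All treated samples were again above all controls, with the nearest pair at 2.65 and 2.61 CPM. The log2 fold change was 0.57 ± 0.24 (SE, unadjusted p = 0.0365, adjusted p = 0.514), and 0.67 ± 0.19 with the GC trends removed (SE, adjusted p = 0.0602). Between the controls of the lines the log2 difference was -0.77 ± 0.57 (SE, adjusted p = 0.273). It was -0.95 with the GC trends removed (adjusted p = 0.0424) and -1.22 without KELLY DMSO replicate 1 (adjusted p = 0.00498), and without KELLY DMSO replicate 2 it was 0.03 (adjusted p = 0.961).

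**Figure D3:**
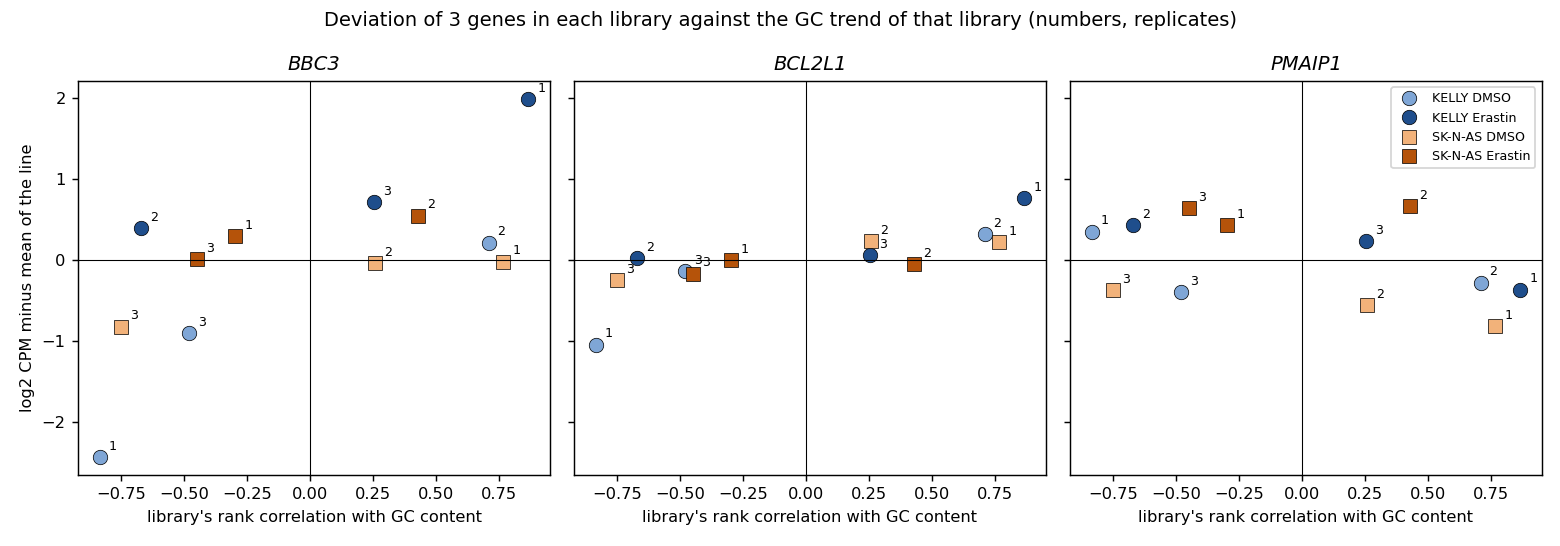
Each point is 1 library, with its rank correlation with gene GC content on the horizontal axis and the log2 CPM of BBC3, BCL2L1 or PMAIP1 minus the mean of its line on the vertical axis. In KELLY the replicate 1 libraries lie at -0.83 and 0.87 on the horizontal axis and at -2.43 and 1.99 for BBC3, while the 3 SK-N-AS Erastin points of PMAIP1 lie above all 3 SK-N-AS DMSO points.

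BCL2L11 (ENSG00000153094, chr2:111119378-111168444, plus strand) encodes BIM, a BH3-only protein that binds all the main anti-apoptotic members. It lay at 9.96, 8.66 and 10.8 CPM in KELLY DMSO, 9.81, 10.8 and 9.92 CPM in KELLY Erastin, 10.2, 10.2 and 10.4 CPM in SK-N-AS DMSO and 11.7, 12.6 and 11.2 CPM in SK-N-AS Erastin. The SK-N-AS Erastin samples were above all others. The Erastin log2 fold change was 0.22 ± 0.11 in SK-N-AS (SE, adjusted p = 0.648) and 0.05 ± 0.17 in KELLY (SE, adjusted p = 0.901). The controls differed by 0.05 ± 0.16 on the log2 scale (SE, adjusted p = 0.813). The lncRNA MIR4435-2HG on the opposite strand shares 10.8% of its exon bases.

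**Figure D4:**
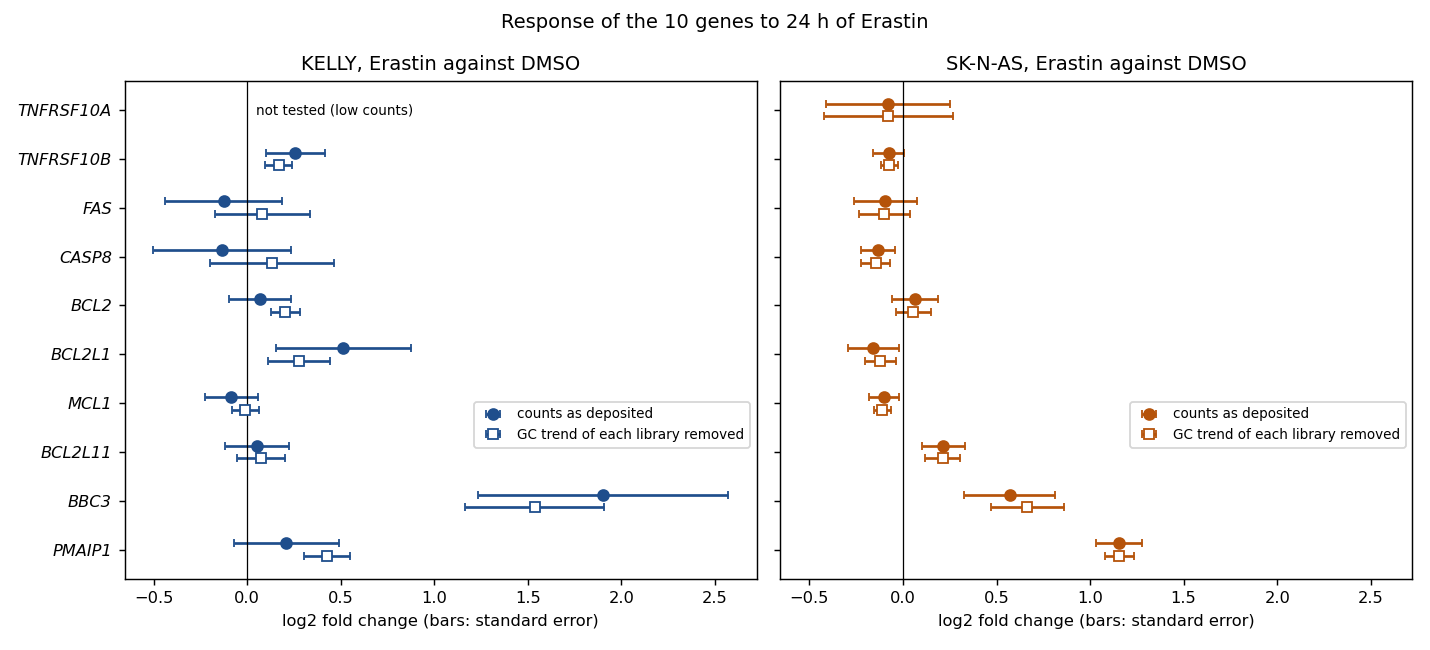
Log2 fold change of Erastin against DMSO for each gene in KELLY (left) and SK-N-AS (right), with bars of 1 standard error, filled circles for the counts as deposited and open squares with the GC trend of each library removed. PMAIP1 in SK-N-AS is the 1 gene that passed the adjusted threshold, at 1.15 and, with the trends removed, at 1.16. BBC3 in KELLY moves from 1.90 to 1.54 with a smaller error when the trends are removed.

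Whether the response itself differed between the lines was tested as an interaction, SK-N-AS response minus KELLY response, in 1 fit of the 12 samples. It called 0 of the 10 genes, as it did for nearly all genes (0.00548% of 18239 passed). DESeq2 also called 0, as did the fit with the GC trends removed (0.104% of all genes passed). PMAIP1 was the 1 gene of the 10 with an unadjusted p under 0.05, with a log2 difference of 0.93 ± 0.32 (SE, unadjusted p = 0.0134, adjusted p = 0.811), or 0.73 ± 0.16 with the GC trends removed (SE, adjusted p = 0.172). It met the threshold of the study there, as did 3.53% of all genes. For BBC3 the difference had the opposite sign, -1.34 ± 0.79 (SE, adjusted p = 0.811), and TNFRSF10B had -0.34 ± 0.16 (SE, unadjusted p = 0.0547, adjusted p = 0.811), or -0.23 ± 0.08 with the GC trends removed (SE, adjusted p = 0.490). The rise of PMAIP1 in SK-N-AS is therefore not shown to differ from the response of KELLY cells.

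Per kb of exon, MCL1 was first in the order of the 10 genes in all 4 groups (44.3 ± 4.13 in KELLY DMSO and 74.8 ± 6.35 CPM per kb in SK-N-AS DMSO, SD, n = 3). In the controls TNFRSF10B was second, at 14.8 ± 1.65 in KELLY and 22.3 ± 1.03 CPM per kb in SK-N-AS. PMAIP1 came next, at 12.4 ± 3.58 and 11.5 ± 1.77 CPM per kb, and with Erastin in SK-N-AS it stood second, at 25.5 ± 2.31. The KELLY samples of TNFRSF10B and PMAIP1 overlapped with DMSO. TNFRSF10A, FAS and, in KELLY, CASP8 stood at the low end, with control means of at most 0.234 CPM per kb. Positions below the first depend in part on the length assumed, most of all for FAS, whose merged exons span 29313 bases and whose canonical transcript has 3696.

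Shares within a role were compared between samples. No test of a share could pass, because the exact permutation test of 3 against 3 samples allows no p below 0.1. Of the summed CPM per kb of the 3 anti-apoptotic genes, BCL2 made up 6.24% ± 0.40 in KELLY DMSO and 1.09% ± 0.06 in SK-N-AS DMSO (SD, n = 3 each), and MCL1 84.6% ± 3.91 and 92.9% ± 1.36. In neither case did the lines overlap (two-sided exact permutation test, p = 0.1, the smallest that 3 against 3 samples allow, and 0.3 after adjustment over 18 comparisons of shares). Of the 3 BH3-only genes, PMAIP1 made up 83.6% ± 3.11 in SK-N-AS DMSO and 90.1% ± 1.12 with Erastin, and BCL2L11 11.2% ± 1.24 and 6.23% ± 0.52, again without overlap (exact permutation p = 0.1, adjusted 0.3). The BCL2L11 share of KELLY was 9.96% ± 2.49 with DMSO and 7.46% ± 0.16 with Erastin, also without overlap (exact permutation p = 0.1, adjusted 0.3). Shares of a set are parts of 1 sum, so a larger share of 1 gene means smaller shares of the others. The mean level of BCL2L11 itself was not lower with Erastin. It was 10.3 CPM with DMSO and 11.8 CPM with Erastin in SK-N-AS, and 9.81 and 10.2 CPM in KELLY. The BCL2 share of SK-N-AS was 1.09% ± 0.06 with DMSO and 1.22% ± 0.03 with Erastin, without overlap (exact permutation p = 0.1, adjusted 0.3). Between the control samples of the lines the shares of all 3 BH3-only genes overlapped. In KELLY the BBC3 share was 8.46% ± 6.87 with DMSO and 22.3% ± 15.2 with Erastin, and these samples overlapped (exact permutation p = 0.2, adjusted 0.514).

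**Figure D5:**
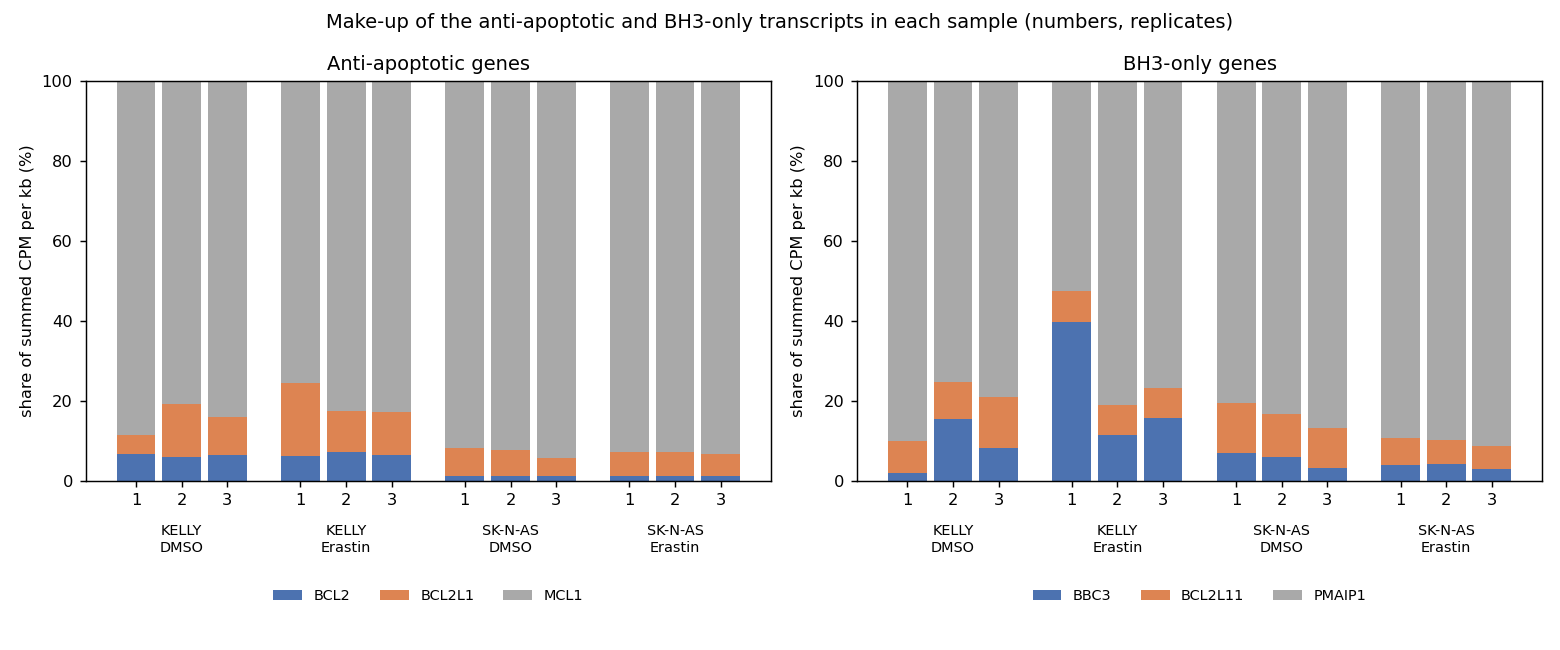
Stacked bars give, for each of the 12 samples, the share (%) of BCL2, BCL2L1 and MCL1 in their summed CPM per kb (left) and of BBC3, BCL2L11 and PMAIP1 in theirs (right). MCL1 takes at least 75.5% of its set in every sample, and PMAIP1 at least 89.2% in each SK-N-AS Erastin sample, while the BBC3 share reaches 39.7% in 1 KELLY Erastin sample.

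The rest of the pathway was read from 4 lists fixed with the design. In SK-N-AS 1 gene of the lists was called with Erastin. It was ATF4, the stress-response transcription factor that is known to act on PMAIP1, which rose from 114, 115 and 106 CPM to 289, 355 and 307 CPM (log2 1.51 ± 0.09 SE, adjusted p = 5.16e-06). No gene was called among the 9 tested of 14 other death receptor signalling genes (median log2 fold change -0.08), the 8 tested of 13 other BCL2 family genes (-0.09) or the 18 apoptosome, caspase and inhibitor genes (0.00), beside a median of -0.01 over all genes tested. With the GC trends removed 1 of these was called, BID, a BH3-only gene, which was lower in all 3 treated samples (log2 -0.24 ± 0.06 SE, adjusted p = 0.0276, against 0.430 without the correction). In KELLY none of the lists held a called gene. ATF4 there lay at 225, 347 and 291 CPM with DMSO and 568, 453 and 486 CPM with Erastin, with no overlap (log2 0.81 ± 0.19 SE, unadjusted p = 0.00284, adjusted p = 0.770), and so met the threshold of the study alone. The ATF4 response of SK-N-AS minus that of KELLY was 0.70 on the log2 scale (adjusted p = 0.811), and 0.97 with the GC trends removed (adjusted p = 0.00403). The 9 other BCL2 family genes tested in KELLY had a median of 0.34, and 0.18 with the GC trends removed, beside 0.01 over all genes tested.

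Between the controls of the lines, 8 of the 9 death receptor signalling genes tested were higher in SK-N-AS and 1 was lower, with a median log2 difference of 1.87 beside -0.02 over all genes. Of all genes 30.3% were higher and 30.9% lower. The other 5 of the 14 were too low to test. CASP10 and TNFRSF11B, at no more than 2 counts in any KELLY control, entered through the SK-N-AS samples alone and so had to differ. Both are counted among the 8 and in the median, which are therefore raised by the filter and are no test of the list. CFLAR, which encodes the caspase-8 regulator c-FLIP, was 7.97-fold higher (log2 3.00 ± 0.17 SE, adjusted p = 9.83e-07). TRADD, an adaptor of the TNF receptor, was 4.86-fold higher (adjusted p = 9.85e-05), and that receptor, TNFRSF1A, 3.65-fold higher (adjusted p = 1.65e-05). CASP10, the caspase most closely related to CASP8, had 121, 135 and 136 counts in SK-N-AS DMSO and 0 in each KELLY DMSO sample, where up to 3 counts per sample remain possible. The ligands of these receptors, chosen after their values were seen, were at the limit of detection: FASLG had no count in any of the 12 samples, TNF at most 2, and TNFSF10, which encodes TRAIL, at most 13.

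Of 9 other BCL2 family genes tested between the controls, 1 was higher and 3 were lower in SK-N-AS (median -0.09), beside 30.3% of all genes higher and 30.9% lower. HRK, a BH3-only gene of neural cells, had 399, 413 and 504 counts in KELLY DMSO and 1, 2 and 0 in SK-N-AS DMSO. HRK, counted among the 3, entered through the KELLY samples alone and so had to differ. BID, whose protein caspase-8 cleaves, had 0.519 of the KELLY level (log2 -0.95 ± 0.17 SE, adjusted p = 0.00122), and BOK 0.566 (adjusted p = 0.0127, passing in 14 of 16 alternatives). BCL2L2, an anti-apoptotic member, was 1.47-fold higher (adjusted p = 0.0209, passing in 12 of 16). Of 18 apoptosome, caspase and inhibitor genes, 7 were higher and 3 lower (median 0.22). With the GC trends removed 8 were higher and 7 lower (median 0.21), beside 35.3% of all genes higher and 38.1% lower. BIRC3, an inhibitor of apoptosis, was higher in SK-N-AS, with 189, 219 and 277 counts against 4, 2 and 11. It is counted among the 7, but entered through the SK-N-AS samples alone and so had to differ. The caspase CASP6 was also higher (4.81-fold, adjusted p = 7.91e-06). CYCS, which encodes cytochrome c, was lower (log2 -1.25 ± 0.20 SE, adjusted p = 0.000701). Of 10 transcription factors known to act on members, 3 were higher and 6 lower (median -0.97). Among the 6, MYCN and TP73 had no more than 11 counts in any SK-N-AS control. Both entered through the KELLY samples alone and so had to differ. MYC was higher, with 3512 to 3987 counts against 15 to 22, and E2F1 was lower (log2 -1.48 ± 0.21 SE, adjusted p = 0.000271).

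The genes whose profile over the 12 samples lay closest to that of CASP8, the member with the largest spread, were MT2A and CCDC144NL-AS1, with root mean square differences of 0.186 and 0.215 in centred log2 CPM among 18239 genes. For TNFRSF10A they were SPRN (0.315) and CTXND1 (0.336), and for BBC3 HIST1H2BM (0.375) and G0S2 (0.412). These 12 samples fall into 2 lines, and a profile set by the line, such as that of CASP8, is shared by many genes. The profile of BBC3 also holds the wide spread of the KELLY libraries. That of TNFRSF10A rests on at most 20 counts per sample.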

How the data were processed

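RNA-seq of KELLY and SK-N-AS cells, 3 samples in each of 4 groups, was read from the raw counts per gene that the authors deposited. Per the study's methods, paired-end reads were aligned to GRCh38 and counted with HTSeq on GENCODE release 29. The deposited counts are whole numbers with totals that differ between samples, so they were taken as not normalized. The aligner and the strand setting are not given in the sources used here. No 2 samples were identical, and totals of 24169796 to 29835670 counts per sample set the precision. Names were matched to GENCODE release 44 by symbol (36194) or older symbol (850) for positions, lengths and GC content.

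Within each line, between the DMSO samples of the lines and for the interaction, edgeR 4.0.16 (R 4.3.3) was run with filterByExpr, TMM scaling and the quasi-likelihood test, with Benjamini-Hochberg adjustment over all genes tested and calls at an adjusted p under 0.05. Printed CPM were scaled by TMM over the 12 samples, so their ratios can differ slightly from fitted folds. The authors used DESeq2 on protein-coding genes, and DESeq2 1.42.0 was an alternative here, beside other scalings and filters, a loess correction for GC content (span 0.5), the replicate number as a block, all 12 samples in 1 fit, and leaving out replicates. Leaving out replicate 1 of both KELLY groups was chosen after seeing the data. The scripts were tested on simulated data. All 10 genes are named. Of the lists, at most the 4 called genes with the largest change, averaging 1 or more in log2 CPM, are named, and some results of the lists are not reported here. The genes and lists were chosen with earlier results of these data known. Promoter sequences are from RefSeq (GRCh38.p14).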

Additional observations from a re-analysis of the deposited data

How the results depend on the processing

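The count of called genes among the 10 was 0 in KELLY in each alternative, replicates left out included (0 to 0), except at the threshold of the study (1, BBC3). In SK-N-AS it was 1 in all but 2 (1 to 1 with a replicate left out): 2 with the replicate block and the GC correction (BBC3, adjusted p = 0.0351) and 0 with all 12 samples in 1 fit. The threshold of the study together with the GC correction, counted beside these, gave 2 (BBC3, 1.59-fold). For the interaction it was 0 (0 to 0 with a replicate left out), and 1 at the threshold of the study (PMAIP1). Between the lines it ranged from 5 to 7 (6 to 7 with a replicate left out). Deviations of same-numbered samples from their group means correlated at -0.79, -0.83 and -0.15 in KELLY and at -0.14, 0.21 and 0.42 in SK-N-AS. Such deviations are bound to sum to 0 within a group, and the libraries also differed in GC trend. These values therefore cannot decide whether same-numbered samples were paired. The replicate block alone changed no call of a member. Added to the GC correction, it brought the BBC3 call in SK-N-AS given above. Between the lines BBC3 was called with the GC correction alone (adjusted p = 0.0424) and not with the block added.

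Directions turned only for values that did not pass. In KELLY with the GC correction FAS was 0.081 and CASP8 0.13, with the replicate block and the GC correction 0.10 and 0.16, and without replicate 1 of both groups 0.25 and 0.28, where BCL2L1 was -0.062 and MCL1 0.064. Between the lines BCL2L1 was -0.0049 with library size alone, -0.0038 with protein-coding genes only, -0.12 with the GC correction and -0.096 with the replicate block and the GC correction. In the interaction BCL2 was 0.0022 with library size alone and 0.000061 with protein-coding genes only, and FAS was -0.013 without a filter, -0.012 with the replicate block, -0.17 with the GC correction and -0.20 with both. With a replicate left out, or replicate 1 of both groups, KELLY gave -0.062 to 0.84 for BCL2L1, -0.14 to 0.064 for MCL1, -0.3 to 0.25 for FAS, -0.32 to 0.28 for CASP8, -0.02 to 0.22 for BCL2 and -0.03 to 0.12 for BCL2L11. SK-N-AS gave -0.19 to 0.024 for FAS and -0.19 to 0.058 for TNFRSF10A. The line difference was -0.29 to 0.34 for BCL2L1, -0.25 to 0.14 for PMAIP1, -0.034 to 0.12 for BCL2L11 and -1.22 to 0.029 for BBC3. The interaction was -0.27 to 0.19 for FAS, -0.33 to 0.17 for CASP8, -0.095 to 0.077 for BCL2 and -0.1 to 0.037 for MCL1. The cause was not tested. TNFRSF10A could not be fitted where at least 10 counts were asked of every sample. Counts were lowest for TNFRSF10A, and for FAS and CASP8 in KELLY.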
